A study of Mus musculus with 14 samples.

Results

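The genes described here encode the protein complexes of the mitochondrial respiratory chain and the ATP synthase. They were chosen by name and gene class: protein-coding genes whose symbols begin with Nduf, Cox4 to Cox8, Uqcr or Atp5, the genes Sdha to Sdhd, and the mitochondrially encoded mt-Nd, mt-Co, mt-Cytb and mt-Atp genes. The rule found 109 genes among the 55487 in the count table. Of these, 96 are encoded in the nucleus and 13 in mitochondrial DNA. A filter on low counts kept 91 of the 96 and all 13, so that 104 were tested among 16876 genes. Cox8b, Cox8c, Cox6a2, Cox7b2 and a second identifier of Atp5o did not pass, with 0 to 2 reads in each library. By complex, the tested nuclear genes comprised 37 of complex I, 4 of complex II, 8 of complex III, 17 of complex IV (Ndufa4 and its paralog Ndufa4l2 counted there), 17 of complex V and 8 assembly factors of complex I. The mitochondrial genes comprised 7, 0, 1, 3 and 2 for complexes I to V.

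The libraries came from the ureteric bud of mouse kidneys at E13.5, the epithelium from which collecting ducts develop. Kidneys were dissociated with trypsin and collagenase, and bud cells were sorted by GFP, which the Hoxb7-Cre transgene co-expresses. By design the deletion and the sort both depend on that transgene, which is meant to act in the ureteric lineage, though libraries 6 and 7 also held nephron progenitor transcripts (values below). There were 5 libraries labelled Cep120 KO, for a deletion of the centriole gene Cep120 by Hoxb7-Cre (libraries 2, 4, 5, 6 and 7), and 3 controls of that line. There were 3 libraries labelled Pkd1 KO, for the polycystic kidney disease gene, and 3 controls of the Pkd1 line. Controls have the genotype label WT, whereas their titles mark them as heterozygous, and every title contains hox, without naming the alleles further. The labels do not say whether libraries came from separate embryos or pools, so every p-value rests on the variation among the libraries at hand, which could be technical.

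The respiratory chain passes electrons from NADH through complex I, or from succinate through complex II, to ubiquinone, then through complex III and cytochrome c to oxygen at complex IV. Complexes I, III and IV pump protons across the inner mitochondrial membrane, and complex V uses the gradient to make ATP. Mitochondrial DNA encodes core membrane subunits of every complex except complex II, and the nucleus encodes the rest, so both genomes must be expressed to build a complex. In the kidney, this machinery is best known from the proximal tubule, whose transport work depends on it.

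Short promoter elements are known from many nuclear respiratory chain genes, and 6 promoters are shown as examples of members with and without them. They come from the RefSeq promoter table for GRCm38.p6 (the 250 bases before each start and 50 after), which held 76 of the 95 nuclear symbols. Each printed stretch lies upstream of the start and overlaps no exon of the GENCODE M21 basic annotation, is up to 120 bases long, reads 5′ to 3′ on the gene's strand, and has the searched motif in capitals. The first 3 are the members of complexes I, III and V with the smallest adjusted p among those called whose stretch held a motif. Sdhd, Ndufa10 and Atp5b were chosen after their values were seen. In Ndufa6 (chr15:82354323-82354442, minus strand) the capitals mark the NRF1 core, GCATGCG. In Uqcrh (chr4:116075072-116075191, minus strand) and Sdhd (chr9:50603850-50603909, minus strand) they mark the ETS core, CCGGAAG, on the other strand. In Atp5g3 (chr2:73911327-73911446, minus strand) they mark the estrogen-related receptor core, AAGGTCA, also on the other strand. The stretches of Ndufa10 (chr1:92473861-92473980, minus strand) and Atp5b (chr10:128083153-128083272, plus strand) held none of the searched motifs and have no capitals.
Ndufa6: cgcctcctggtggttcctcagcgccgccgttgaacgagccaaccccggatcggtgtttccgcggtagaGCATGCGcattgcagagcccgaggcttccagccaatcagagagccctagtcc
Uqcrh: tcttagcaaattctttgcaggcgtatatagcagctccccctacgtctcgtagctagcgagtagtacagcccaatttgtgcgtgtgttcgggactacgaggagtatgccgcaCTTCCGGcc
Atp5g3: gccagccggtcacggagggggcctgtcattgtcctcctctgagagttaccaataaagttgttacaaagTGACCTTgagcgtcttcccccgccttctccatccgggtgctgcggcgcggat
Sdhd: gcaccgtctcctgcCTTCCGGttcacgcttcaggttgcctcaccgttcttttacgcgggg
Ndufa10: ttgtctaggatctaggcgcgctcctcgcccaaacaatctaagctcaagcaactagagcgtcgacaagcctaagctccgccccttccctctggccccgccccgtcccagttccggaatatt
Atp5b: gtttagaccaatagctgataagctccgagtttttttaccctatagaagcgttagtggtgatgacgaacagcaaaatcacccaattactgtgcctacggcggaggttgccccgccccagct

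Over the whole table of promoters, searched on both strands, the NRF1 core stood in 13 of the 76 members (17.1%), against 3.58% of all 32851 promoters and 6.93% of the 11455 tested genes with a promoter. Members and tested genes count where any of their promoters holds the motif. The share of all promoters is counted per promoter, so only the share of tested genes is a like measure. The ETS core stood in 19 members (25%, against 8.86% and 18.9%). The YY1 core, AAGATGG, stood in 12 members (15.8%, against 6.34% and 7.94%), and the estrogen-related receptor core in 8 (10.5%, against 4.72% and 3.85%). A promoter may hold several of these motifs, and motifs may share letters. A match is a description of the sequence and not a binding site, and no binding was measured here.

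Levels between genes are compared in the authors' deposited TPM, which corrects for transcript length, as the mean ± SD over the 6 controls of both lines. The highest level in complexes I, III, IV and V was that of a mitochondrially encoded gene. mt-Co3 stood at 19060 ± 2761 TPM and was the highest of complex IV, mt-Atp6 at 10930 ± 1603 was the highest of complex V, mt-Nd1 at 6417 ± 999.8 of complex I and mt-Cytb at 6175 ± 1390 of complex III. mt-Nd5, at 629 ± 167 TPM, was the lowest of the 13 and differed from mt-Nd4l, at 632 ± 114, by less than the SD. Among nuclear genes, the lowest of complex I was Ndufs1, the largest subunit of its NADH-oxidising arm, at 46.7 ± 4.94 TPM. Complex II ran from 156 ± 15.6 TPM for Sdha, the flavoprotein, to 383 ± 40.9 for Sdhb, the iron-sulfur subunit. The Rieske iron-sulfur protein Uqcrfs1 was lowest in complex III at 163 ± 41.1 TPM, and Atp5j2 lowest in complex V at 417 ± 35.8. Assembly factors were lower than most subunits, from 9.13 ± 3.54 TPM for Ndufaf6 to 128 ± 8.21 for Ndufaf2.

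Where a subunit has alternative isoforms, the ubiquitous form made up nearly all of the transcript. Cox4i1 stood at 1616 ± 99.5 TPM (n = 6 controls), against 1.92 ± 1.10 for Cox4i2, the form known from lung. Cox7a2 stood at 524 ± 43.7 and the related supercomplex factor Cox7a2l at 230 ± 17.6, against 3.03 ± 0.999 for the muscle form Cox7a1. Cox6b1 stood at 715 ± 48.6, against 37.2 ± 4.31 for the testis form Cox6b2. Cox6a1 stood at 758 ± 31.5 and Cox8a at 622 ± 42.5, while their muscle forms Cox6a2 and Cox8b did not pass the filter. Ndufa4 stood at 1140 ± 80.1, against 0.921 ± 1.45 for Ndufa4l2, which had 0 reads in 2 controls. The 3 genes for the c ring of the ATP synthase were close, with Atp5g1 at 882 ± 69.9, Atp5g2 at 775 ± 46.3 and Atp5g3 at 768 ± 55.2. Atp5g2 and Atp5g3 differed by less than their SD.

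Each library held between 11347628 and 27967540 counts in all. The libraries labelled Cep120 KO had no less Cep120 than their controls, at 7.87 to 21.2 CPM (counts scaled to library size with TMM factors) against 6.41 to 10.6 (log2 0.83, SE 0.31, edgeR adjusted p = 0.0832), and no source used here gives the deleted exons. Pkd1 stood at 2.39 to 2.68 CPM in Pkd1 KO and 3.34 to 4.60 in its controls (log2 -0.65, SE 0.43, edgeR adjusted p = 1). Libraries 4 to 7 stood apart, with TMM factors of 1.15 to 1.32 against 0.862 to 0.966 in the other 10. Libraries 4 and 5 differed by 2.14 times the sampling noise, the closest pair of all, against 3.66 times for the next pair. Summed nephron progenitor markers (10 genes) stood at 900 and 696 CPM in libraries 6 and 7 against 26.8 to 63.8 in the other 12, where Six2, the defining gene, was at 0 to 1.53 CPM. In libraries 6 and 7, Six2 was at 127 and 86.1 CPM, Osr1 at 203 and 143, and none of the 10 was at 0. Summed ureteric bud markers (18 genes) were 1883 and 2529 CPM there and 4454 to 4962 elsewhere. Summed stromal markers stood at 139 and 148 CPM in libraries 6 and 7 against 1.73 to 72.6 in the other 12. Endothelial markers stood at 56.9 CPM in library 7 and 2.23 to 24.1 elsewhere. Erythroid and platelet markers ran from 5.11 to 901 CPM in the libraries labelled Cep120 KO, against 442 to 5690 in their controls. Leukocyte markers ran from 4.65 to 25.4 CPM against 23.4 to 42.8. Of 9 erythroid and platelet markers, 2 fell in the libraries labelled Cep120 KO (Pf4 and Ppbp), against 6.26% of all genes lower. Of the stromal, endothelial and leukocyte markers, 0 of 10, 8 and 8 were called with edgeR, against 14.7% of all genes. In bulk samples, fewer cells of a type and less RNA per cell cannot be told apart.

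In the libraries labelled Cep120 KO, transcripts of both genomes were lower than in the controls of that line. Of 91 nuclear genes, 51 fell and 0 rose (edgeR's quasi-likelihood test with Benjamini-Hochberg adjustment, p under 0.05), with a median log2 fold change of -0.85. Of 13 mitochondrial genes, 8 fell and 0 rose, with a median of -0.91. Over all 16876 genes, 14.7% were called, 8.4% higher and 6.26% lower, and the median was 0.12. In 59 nuclear genes every library labelled Cep120 KO lay below every control in CPM, against 8.75% of all genes. No mitochondrial gene was separated in that way, since library 2 lay above the lowest control for 12 of them and library 6 did so for mt-Nd6. Overlap here and below refers to CPM unless TPM is named. Many of the separated nuclear genes overlapped the controls in the deposited TPM, among them Sdhb, Sdhd, Cox7b, Cox6c, Ndufs8 and Atp5o. Others, such as Ndufb11 and Cox7c, did not, so the count of 59 holds for CPM only. In Uqcrc1, libraries 4 to 7 lay above every control in TPM, at 603 to 700 against 498 to 536. The called members had adjusted p between 0.029 and 0.049985, close to the threshold of 0.05, and at an unadjusted p under 0.05 the counts were 74 of 91 and 11 of 13.

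**Figure D1:**
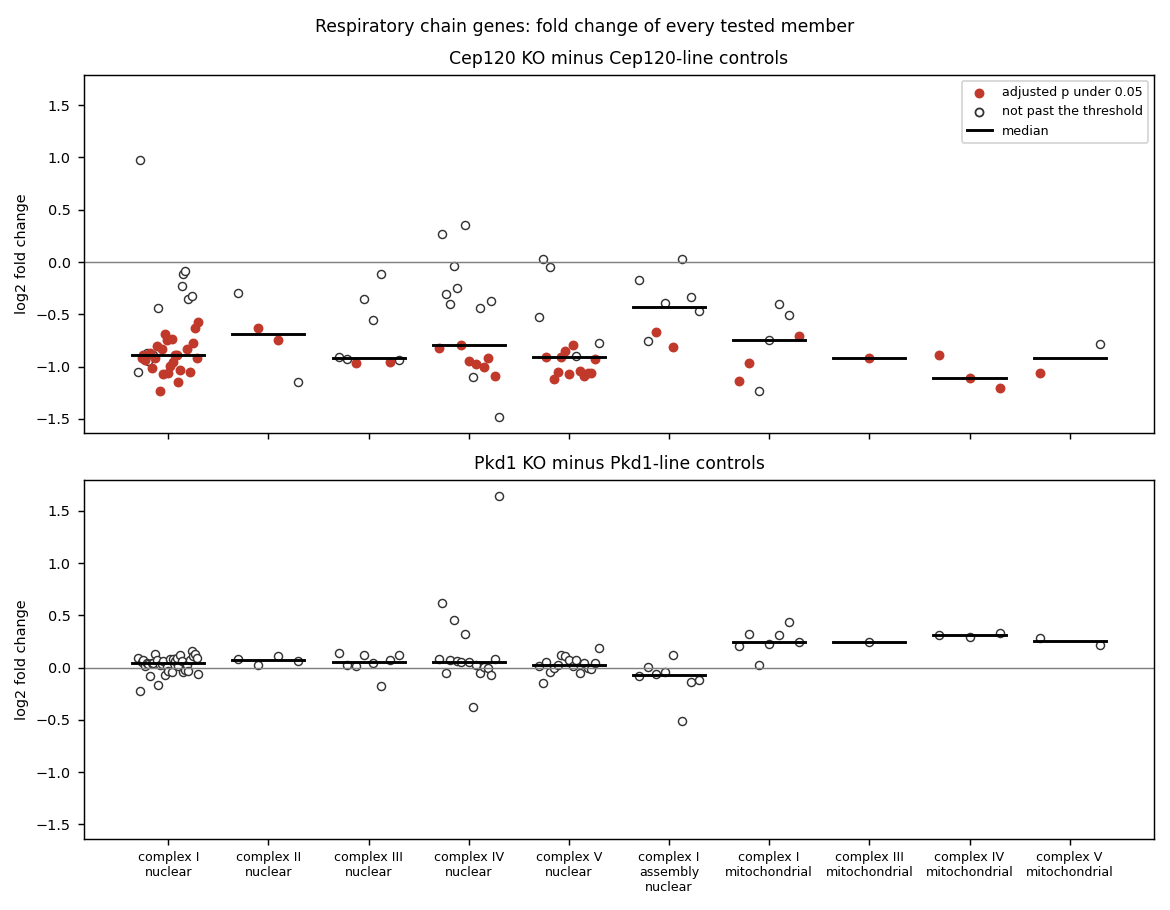
Log2 fold change (y axis) of each of the 104 tested genes by complex and encoding genome (x axis), for the libraries labelled Cep120 KO (top) and Pkd1 KO (bottom) against their controls. Each point is 1 gene, filled where the adjusted p is under 0.05, and the bar is the median of its group. In the top panel all 59 filled points lie below 0, and in the bottom panel none is filled.

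The calls depended on single libraries. Without library 7, or without control 1, 2 or 3, 0 of 91 nuclear and 0 of 13 mitochondrial genes passed with edgeR, while 65 to 71 and 9 to 12 had an unadjusted p under 0.05. Without library 6, 4 and 0 passed, without library 4, 28 and 1, and without library 5, 25 and 0. Leaving out any 1 library of the Pkd1 line, which contributes only to the estimate of spread, left 30 to 34 and 1. Without library 2, 72 nuclear genes (71 lower) and 11 mitochondrial genes passed. The nuclear median stayed between -1.07 and -0.74 over the 14 fits that each left out 1 library. In a fit of the Cep120 line alone, 0 and 0 passed (63 and 10 at an unadjusted p under 0.05). DESeq2 called 66 (65 lower) and 10, and limma-voom with quality weights 83 (81 lower) and 13.

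Among the mitochondrially encoded genes, all 3 subunits of complex IV fell, against 6.26% of all genes lower. All counts for these genes rest on the unstranded kit, and mt-Atp8 overlaps mt-Atp6 (7766 to 7969 and 7927 to 8607 of the mitochondrial genome, GRCm38), mt-Nd4l overlaps mt-Nd4, and mt-Nd6 lies on the opposite strand to mt-Nd5 with a shared end, so reads of these pairs cannot be fully told apart. Nuclear copies of mitochondrial DNA can also share such reads. mt-Co3 (8607 to 9390), a structural subunit of cytochrome c oxidase, had 13065, 3760, 4062, 5967 and 4873 CPM in libraries 2, 4, 5, 6 and 7, against 16632, 14878 and 12255 in controls 1, 2 and 3. Library 2 lay within the controls and the other 4 libraries far below them. Its log2 fold change was -1.20 (SE 0.33, edgeR adjusted p = 0.0345). mt-Co2, which holds the first copper centre and takes electrons from cytochrome c, had 3798, 1591, 1652, 1965 and 1832 CPM against 5603, 5161 and 3284, a change of -1.11 (SE 0.28, edgeR adjusted p = 0.0308). mt-Co1, the catalytic heme and copper subunit, had 5584, 2587, 2774, 3878 and 2989 CPM against 7634, 7305 and 4826, a change of -0.89 (SE 0.28, edgeR adjusted p = 0.049985). In all 3 genes control 3 was the lowest control and library 2 lay above it.

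mt-Cytb, the membrane core of complex III, had 6422, 2904, 3040, 3797 and 2963 CPM in libraries 2, 4, 5, 6 and 7, against 8180, 8414 and 5027 in the controls. It fell by 0.91 on the log2 scale (SE 0.28, edgeR adjusted p = 0.0448). In deposited TPM, mt-Cytb had 5820 and 4882 in libraries 6 and 7, above control 3 at 4683. mt-Atp6, the proton channel subunit of the ATP synthase, had 6526, 2211, 2302, 2194 and 1986 CPM against 7314, 6912 and 4871, and fell by 1.06 (SE 0.34, edgeR adjusted p = 0.0499). Libraries 4 to 7 were close to each other for mt-Atp6, and library 2 stood with the controls. mt-Atp8, its small partner, had 728, 231, 231, 414 and 302 CPM against 717, 660 and 586, a log2 difference of -0.78 (SE 0.31) that did not pass (edgeR adjusted p = 0.0992).

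Of the 7 mitochondrial genes of complex I, which form its proton-pumping membrane arm, 3 fell, against 6.26% of all genes lower. mt-Nd1 had 5707, 1772, 1755, 2437 and 1877 CPM against 7014, 6131 and 4695, a change of -1.13 (SE 0.35, edgeR adjusted p = 0.0438). mt-Nd2 had 965, 396, 386, 594 and 451 CPM against 1426, 1050 and 797, a change of -0.97 (SE 0.28, edgeR adjusted p = 0.0404). mt-Nd6, the sole protein gene on the light strand, had 187, 154, 150, 195 and 137 CPM against 333, 282 and 193, a change of -0.71 (SE 0.20, edgeR adjusted p = 0.0376). For mt-Nd6 it was library 6, not library 2, that overlapped control 3 in CPM. In deposited TPM, mt-Nd6 had 561, 686, 672, 915 and 709 against 876, 813 and 573. Library 6 thus lay above every control in TPM and only library 2 below them all. Libraries 6 and 7 also lay above control 3 in TPM for mt-Nd2 (1120 and 955 against 932), though not for mt-Nd1. The other 4 did not pass: mt-Nd3 at -1.24, mt-Nd4 at -0.75, mt-Nd5 at -0.51 and mt-Nd4l at -0.40 (log2). mt-Nd3 ranged from 102 to 113 CPM in libraries 4 to 7, against 452 in library 2 and 338 to 476 in the controls.

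Of the 37 nuclear genes of complex I, 26 fell, 0 rose and the median was -0.89. Of all genes 6.26% were lower, with 21.1% of those under 700 bases and 16.6% of those from 700 to under 1400. Of the accessory subunits, which surround the catalytic core and are 30 of the 37, 23 fell, with a median of -0.89. Of the 7 nuclear core subunits 3 fell, with a median of -0.33. Whether these groups differ was not tested, nor was the part of transcript length in it (lengths below). Ndufa6 (chromosome 15, 82350140 to 82354322), whose promoter is printed above, had 223, 154, 155, 109 and 119 CPM in libraries 2, 4, 5, 6 and 7, against 326, 307 and 290 in the controls. Every library labelled Cep120 KO was below every control, with library 2 nearest to them. The change was -1.02 (SE 0.20, edgeR adjusted p = 0.029). Ndufb11 (X chromosome, 20615326 to 20617619), a membrane-arm subunit, had 254, 163, 162, 112 and 105 CPM against 359, 326 and 317 (-1.07, SE 0.23, edgeR adjusted p = 0.029). Ndufb10, another membrane-arm subunit, had 159, 126, 122, 96.3 and 88.8 CPM against 223, 213 and 195 (-0.83, SE 0.18, edgeR adjusted p = 0.029). In both, libraries 6 and 7 were lowest and the groups did not overlap in CPM. In deposited TPM, Ndufb11 did not overlap, whereas Ndufb10 had 310 in library 4 against 307 in control 3. The accessory subunits that fell ranged from -0.57 for Ndufv3 to -1.23 for Ndufb1-ps, which is named as a pseudogene but classed as protein-coding.

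The core subunits of complex I carry its flavin and iron-sulfur centres, and those named here were chosen after their values were seen. Ndufs8 fell by 0.77 (SE 0.17, edgeR adjusted p = 0.029), with 253, 201, 202, 180 and 151 CPM against 378, 335 and 299. Ndufv2 fell by 0.92 and Ndufv1, the NADH-binding subunit, by 0.63 (edgeR adjusted p = 0.0319 and 0.0441). Both stood near the controls in library 2, at 391 and 386 CPM, and at 157 to 250 CPM in libraries 4 to 7. In deposited TPM all 3 overlapped the controls. Ndufv1 had 253, 212, 221, 253 and 221 TPM against 220, 230 and 243, with libraries 2 and 6 above every control. Ndufs8 had 413 and 415 TPM in libraries 4 and 5 against 398 in control 3. Ndufs1, Ndufs3 and Ndufs7 did not pass, with log2 differences of -0.23, -0.09 and -0.33. Ndufs3 had 118, 71.1, 72.3, 134 and 114 CPM against 111, 102 and 112 in the controls. Libraries 4 and 5 were low in CPM and library 6 was the highest, unlike in Ndufa6. In deposited TPM, Ndufs3 had 131, 118, 120, 231 and 210 against 111, 104 and 120. Ndufs1 had 46.3, 68.1, 69.4, 63.8 and 67.0 TPM against 39.1, 45.9 and 51.2.

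Ndufa10, an accessory subunit of the membrane arm, differed in direction from the other 36 (chromosome 1, 92439010 to 92473860, chosen after its values were seen). It had 67.9, 133, 136, 267 and 235 CPM in libraries 2, 4, 5, 6 and 7, against 80.3, 83.6 and 91.5 in the controls. Libraries 4 to 7 lay above all controls and library 2 below them. Ndufa10 differed by 0.98 on the log2 scale (SE 0.33) and was not called (edgeR adjusted p = 0.0584). It passed without library 2, at 1.18 (edgeR adjusted p = 0.00176), and with DESeq2 at 0.97 (adjusted p = 0.0242), and was -0.31 with library 2 as the only library of its group (edgeR adjusted p = 0.484). In the other groups it stood at 76.7 to 103 CPM.

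**Figure D2:**
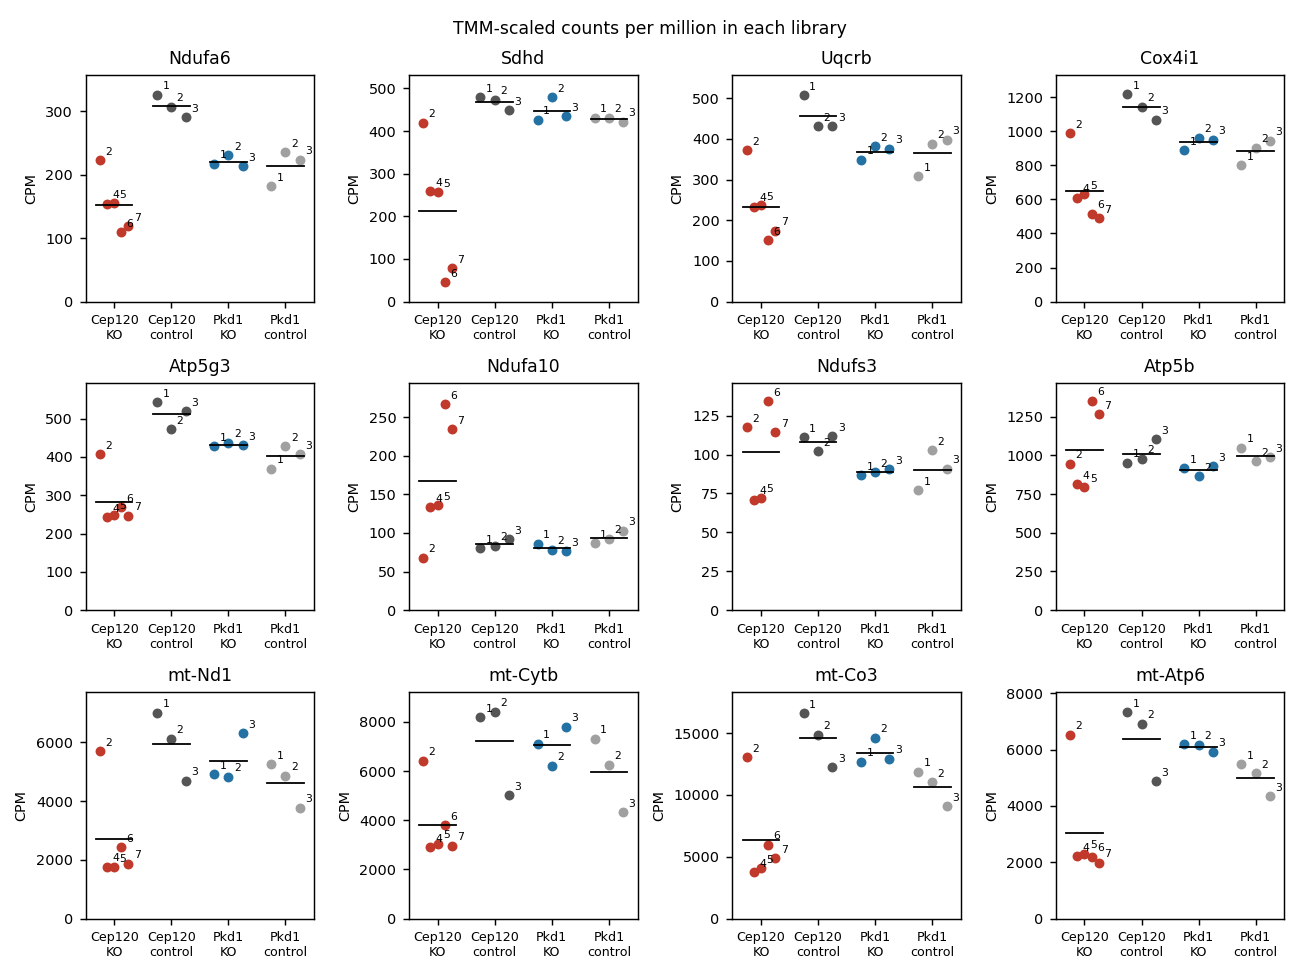
TMM-scaled CPM (y axis, from 0) of 12 genes in each library, by group (x axis), where Cep120 KO stands for the libraries labelled so. Each point is 1 library with its number, and the bar is the group mean. Libraries 6 and 7 are lowest in Ndufa6, Sdhd, Uqcrb and Cox4i1 and highest in Ndufa10 and Atp5b, while libraries 4 to 7 lie below every other library in the 4 mitochondrial genes.

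Complex II oxidises succinate and is the only complex encoded wholly in the nucleus. Of its 4 genes, 2 fell, against 6.26% of all genes lower. Sdhb had 311, 313, 314, 216 and 208 CPM against 472, 395 and 400 (-0.63, SE 0.18, edgeR adjusted p = 0.038), and the groups did not overlap in CPM. In deposited TPM, Sdhb had 297, 446, 448, 319 and 320 against 400, 350 and 362. Libraries 4 and 5 thus lay above the controls in TPM. Sdhc, a membrane anchor, had 291, 163, 166, 148 and 130 CPM against 299, 311 and 294 (-0.75, SE 0.22, edgeR adjusted p = 0.0388). Library 2 lay just below the lowest control. Sdhd, the other anchor (chromosome 9, 50596357 to 50603812), had 420, 259, 257, 45.5 and 77.8 CPM against 480, 474 and 449. Libraries 6 and 7 were far below every other library, 4 and 5 in between, and library 2 just below the controls. Sdhd differed by -1.14 on the log2 scale (SE 0.49) and was not called (edgeR adjusted p = 0.116). Sdha, the flavoprotein, differed by -0.30 (SE 0.20, edgeR adjusted p = 0.325) and overlapped the controls in CPM. In deposited TPM, Sdha had 170, 208, 209, 147 and 174 against 139, 149 and 140.

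In complex III, which moves electrons from ubiquinol to cytochrome c, 2 of 8 nuclear genes fell, and the median was -0.92. Of all genes 6.26% were lower, and of those under 700 bases 21.1%. Uqcrb had 372, 233, 237, 152 and 174 CPM against 508, 431 and 431 (-0.97, SE 0.23, edgeR adjusted p = 0.0301). Uqcrh, the hinge protein, had 311, 159, 162, 125 and 122 CPM against 390, 332 and 304 (-0.96, SE 0.26, edgeR adjusted p = 0.0326). Library 2 overlapped the controls in Uqcrh and not in Uqcrb. The small subunits Uqcr11, Uqcrq and Uqcr10 had log2 differences of -0.93, -0.93 and -0.91 and missed the threshold, with every library labelled Cep120 KO below every control in CPM. In deposited TPM, Uqcrq and Uqcr10 overlapped the controls and Uqcr11 did not. The large core proteins Uqcrc1 and Uqcrc2, at -0.36 and -0.55, and the Rieske protein Uqcrfs1, at -0.11 (SE 0.36), did not pass.

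Complex IV, cytochrome c oxidase, had 7 of 17 nuclear genes lower, against 6.26% of all genes, and a median of -0.79. Cox7c had 372, 218, 221, 160 and 170 CPM against 433, 425 and 437 (-0.92, SE 0.23, edgeR adjusted p = 0.0305). Cox4i1, the largest nuclear subunit, had 990, 610, 629, 516 and 488 CPM against 1218, 1144 and 1068 (-0.82, SE 0.20, edgeR adjusted p = 0.0305). Cox7b had 179, 149, 154, 76.1 and 77.5 CPM against 256, 256 and 253 (-1.01, SE 0.25, edgeR adjusted p = 0.0308). In these 3 genes the groups did not overlap in CPM and libraries 6 and 7 were lowest. In deposited TPM, Cox7c and Cox4i1 did not overlap either. Cox7b overlapped there, with 342, 430, 449, 331 and 362 TPM against 417, 431 and 406. Ndufa4 (-1.09), Cox7a2 (-0.97), Cox6c (-0.94) and Cox6b1 (-0.79) fell as well. Cox6b1 had 651, 740, 828, 419 and 478 TPM against 710, 693 and 725. Cox5a, Cox5b, Cox6a1 and Cox8a did not pass, at -0.30, -0.40, -0.25 and -0.37, and overlapped the controls. Cox6a1 had 380 and 311 CPM in libraries 6 and 7 and 194 in both 4 and 5, against 345, 293 and 324 in the controls. Of the minor isoforms, Cox4i2, Cox6b2 and Cox7a1 had log2 differences of 0.27, 0.35 and -1.10 with overlapping groups, and Ndufa4l2, at 0 to 2.79 CPM, is too low to read.

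In complex V, the ATP synthase, 12 of 17 nuclear genes fell, against 6.26% of all genes lower, with a median of -0.91. All 3 c-ring genes fell: Atp5g1 by 1.05, Atp5g2 by 0.91 and Atp5g3 by 0.85 on the log2 scale. Atp5g3 (chromosome 2, 73908447 to 73911326) had 407, 243, 249, 269 and 247 CPM in libraries 2, 4, 5, 6 and 7, against 543, 473 and 519 in the controls (SE 0.17, edgeR adjusted p = 0.029). Libraries 4 to 7 lay close to each other there, and all 5 lay below the controls. Atp5h, a subunit of the peripheral stalk, had 502, 295, 315, 207 and 212 CPM against 723, 608 and 598 (-1.07, SE 0.24, edgeR adjusted p = 0.029). Atp5c1, the rotating gamma shaft, had 933, 549, 532, 484 and 462 CPM against 1179, 1094 and 1054 (-0.91, SE 0.20, edgeR adjusted p = 0.029). Of the stalk subunits 3 of 4 fell and of the small membrane subunits 4 of 5. The F1 head differed within itself. Atp5e, the epsilon subunit, fell by 1.12 (edgeR adjusted p = 0.0487), whereas the catalytic beta subunit Atp5b, at 0.03 (SE 0.19), the alpha subunit Atp5a1, at -0.52, and the delta subunit Atp5d, at -0.05, did not pass. Atp5b had 947, 814, 796, 1354 and 1266 CPM against 952, 978 and 1106, so that libraries 6 and 7 lay above and 4 and 5 below the controls. In deposited TPM, Atp5b had 612, 947, 932, 1502 and 1466 against 638, 602 and 708. Libraries 4 and 5 thus lay above the controls in TPM, as did 6 and 7.

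Complex I assembly factors, which do not stay in the finished enzyme, had a median of -0.43, and 2 of 8 fell. Of all genes 6.26% were lower, and of those from 700 to under 1400 bases 16.6%. Ndufaf5 had 25.5, 14.4, 13.6, 16.2 and 14.8 CPM against 31.3, 31.4 and 26.4 (-0.81, SE 0.21, edgeR adjusted p = 0.0313). Ndufaf3 had 36.9, 34.6, 34.5, 24.9 and 21.1 CPM against 49.4, 51.2 and 44.3 (-0.67, SE 0.19, edgeR adjusted p = 0.0348). Neither overlapped the controls in CPM, and both did in deposited TPM. Ndufaf6, at 2.58 to 10.4 CPM, differed by 0.02 (SE 0.41).

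The libraries labelled Cep120 KO differed from each other, and the order of libraries differed between the genomes. The median of the 91 nuclear genes, as a log2 difference from the average Cep120-line control, was -0.22 in library 2, -0.79 in libraries 4 and 5, -1.18 in library 6 and -1.28 in library 7. That of the 13 mitochondrial genes was -0.14, -1.42, -1.44, -0.84 and -1.23 in the same order. Nuclear genes were thus lowest in libraries 6 and 7 and mitochondrial genes in libraries 4 and 5. Among the 5 libraries, the lowest value lay in library 6 or 7 for 39 and 31 of the 91 nuclear genes, and in library 4 or 5 for 7 and 4 of the 13 mitochondrial genes. Library 2 was the highest of the 5 for 75 and 11. The same counts over all genes were not made, so these describe the members and do not set them apart from other genes. Complex V had the lowest medians in libraries 6 and 7, at -1.54 and -1.60, and nuclear complex IV the least low of the 5 complexes, at -0.54 and -0.68. The median of all genes tested was -0.03 to 0.11 in the 5 libraries.

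**Figure D3:**
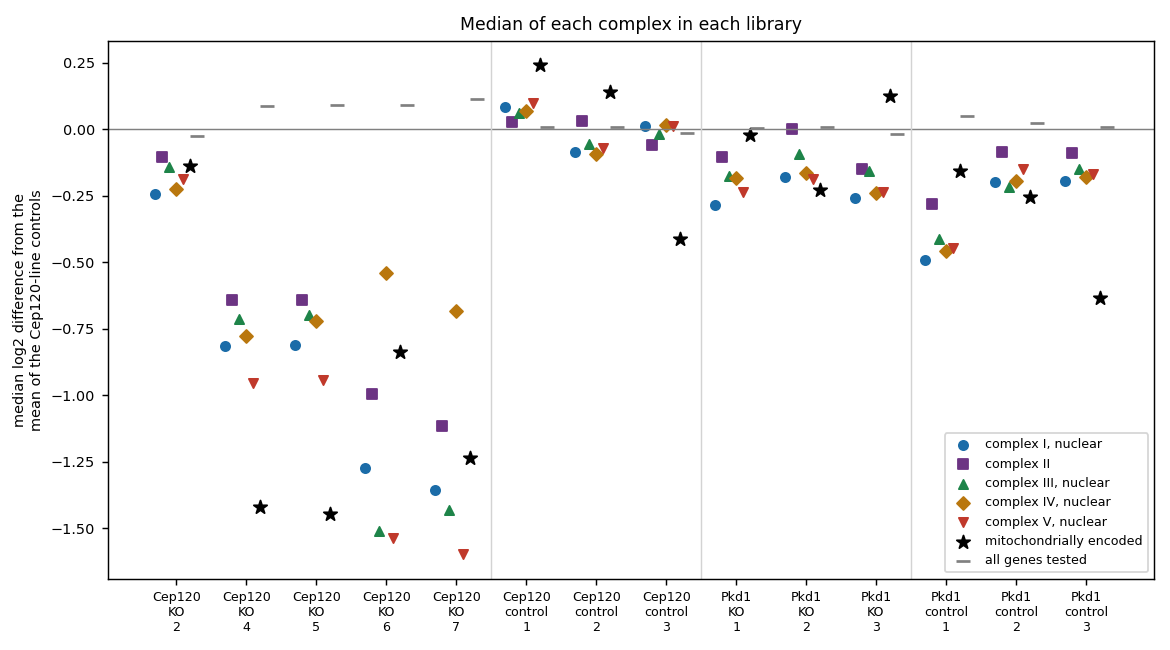
Median log2 difference from the average Cep120-line control (y axis) in each of the 14 libraries (x axis), for the nuclear genes of each complex, the mitochondrially encoded genes and all genes tested. Each symbol is 1 median over genes. Libraries 4 to 7 lie below the other 10 for every complex, and library 2 lies with the libraries of the other groups.

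The share of all counts taken by the members showed the same libraries. Mitochondrially encoded members took 4.19, 1.99, 2.09, 3.05 and 2.57% of counts in libraries 2, 4, 5, 6 and 7, and 5.10, 4.85 and 3.51% in the controls. Library 2 lay between the controls, and the group means were 2.78 ± 0.894% (SD, n = 5) and 4.49 ± 0.855% (SD, n = 3). Nuclear members took 2.40, 1.97, 1.98, 1.87 and 1.91% against 2.66, 2.52 and 2.63%, without overlap, with means of 2.02 ± 0.214% and 2.60 ± 0.0769%. Of the deposited TPM, which corrects for transcript length, they took 4.28, 4.01, 4.09, 3.20 and 3.38% against 4.62, 4.37 and 4.63%. Libraries 2, 4 and 5 thus lay nearer to the controls than libraries 6 and 7 did, and Pkd1-line control 1 stood at 4.09%. The ratio of mitochondrial to nuclear counts was 1.75, 1.01, 1.05, 1.64 and 1.35 against 1.92, 1.93 and 1.34, and the groups overlapped. Mitochondrial ribosomal RNA, which is outside the chosen genes, took 0.156 and 0.155% of counts in libraries 4 and 5 and 0.331 to 0.590% in the other 12.

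**Figure D4:**
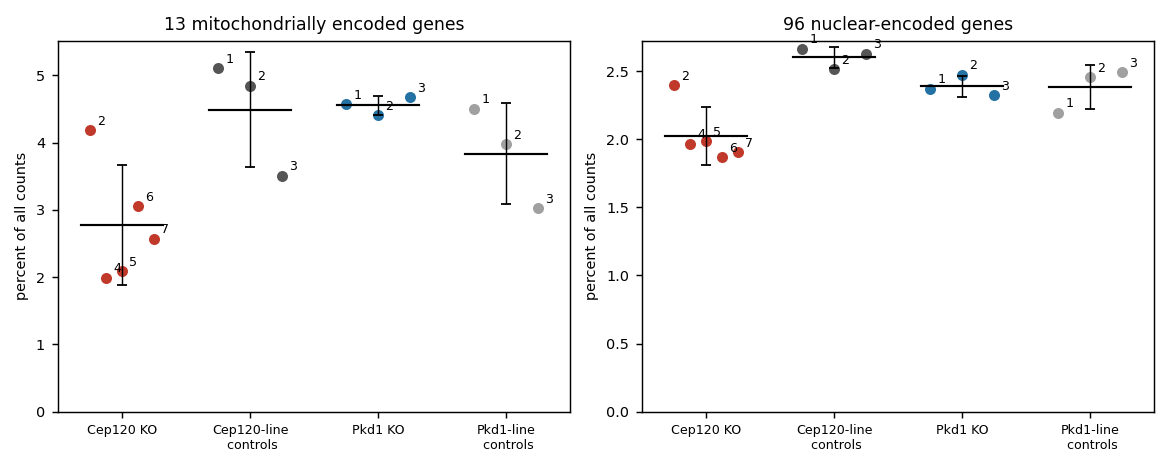
Percent of all counts (y axes, from 0) taken by the 13 mitochondrially encoded genes (left) and the 96 nuclear-encoded genes (right) in each library, by group (x axis). Points are libraries with their numbers, the long bar is the group mean and the whisker the SD. In the left panel library 2 lies between controls 2 and 3 of its line, and in the right panel all 5 libraries labelled Cep120 KO lie below their controls.

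Respiratory chain transcripts are short, and transcript length moved with the result. The nuclear members had a median length of 747.5 bases, against 2447 over all genes tested. Relative to the mean of the 6 controls, the longest 10% of genes exceeded the shortest 10% in libraries 4 to 7, with medians 1.08 to 1.37 apart on the log2 scale, against -0.29 to 0.44 in the other 10. Among genes under 700 bases, the median change was -0.93 for the 39 members and -0.57 for all 1223 genes, with 23 members lower against 21.1% of all such genes. From 700 to under 1400 bases the medians were -0.84 for 32 members and -0.32 for 2769 genes, with 21 members lower against 16.6%. At 1400 bases or more they were -0.48 for 20 members and 0.26 for 12870 genes, with 7 members lower against 2.63%. Members of each length class thus had a lower median than all genes of that class. Across the 91 nuclear members, length and fold change had a Spearman rho of 0.42, a description over genes of the same libraries. With length and GC offsets for each library, 0 of 91 nuclear and 0 of 13 mitochondrial genes passed with edgeR (54 and 9 at an unadjusted p under 0.05), and the medians were -0.50 and -0.46. The part of length, of nephron progenitor transcripts and of the library set in these differences was not tested beyond these values. Since libraries 4 to 7 all carry 1 label, what sets these libraries apart and the genotype cannot be told apart. Without libraries 6 and 7, which hold the nephron progenitor transcripts, 32 nuclear and 0 mitochondrial genes passed with edgeR (10 mitochondrial genes at an unadjusted p under 0.05), with medians of -0.60 and -0.81.

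**Figure D5:**
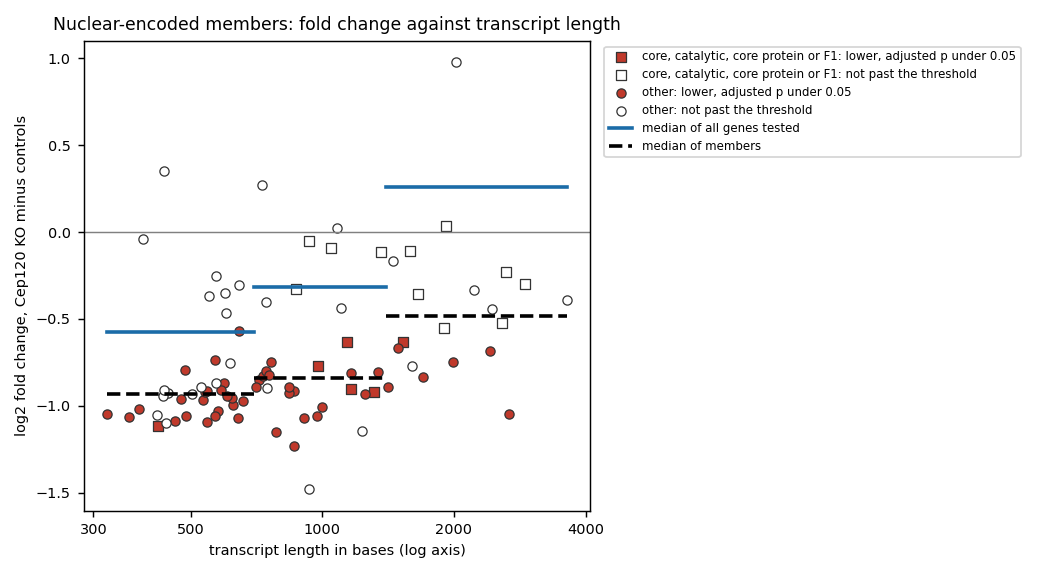
Log2 fold change of the libraries labelled Cep120 KO against their controls (y axis) and transcript length in bases (x axis, log scale) for the 91 nuclear members. Squares are core, catalytic, core-protein or F1 subunits, filled symbols have an adjusted p under 0.05, and lines give the medians of the members (dashed) and of all genes tested (solid) in 3 length classes. The member medians of -0.93, -0.84 and -0.48 lie below those of all genes.

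In the Pkd1 line, 0 of 91 nuclear and 0 of 13 mitochondrial genes were called with edgeR, as were 0.0% of all genes, and none had an unadjusted p under 0.05 (1.53% of all genes had). DESeq2 and limma-voom also called 0, and 2 nuclear and 2 mitochondrial genes had an unadjusted p under 0.05 with limma-voom. The median log2 difference was 0.04 for nuclear genes and 0.29 for mitochondrial genes, against -0.01 over all genes. All 13 mitochondrial genes had a difference above 0, and in 2 of them every Pkd1 KO library lay above every control, as in 2 nuclear genes (4.88% of all genes). In 2 other nuclear genes every KO library lay below (6.19% of all genes). The smallest p among them was that of mt-Nd5, a proton-pumping subunit, with 1475, 1115 and 1459 CPM in Pkd1 KO against 1344, 945 and 712 in the controls. The groups overlapped, and the difference was 0.43 (SE 0.27, edgeR adjusted p = 1). The mitochondrial share of counts was 4.57, 4.41 and 4.67% in Pkd1 KO and 4.50, 3.98 and 3.02% in the controls, where control 1 lay between the KO libraries. The nuclear share was 2.37, 2.47 and 2.32% against 2.19, 2.45 and 2.49%, with overlap.

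The difference between the Cep120 and Pkd1 effects did not pass for any member with edgeR (0.0% of all genes passed). At an unadjusted p under 0.05 there were 56 of 91 nuclear and 10 of 13 mitochondrial genes, against 20.4% of all genes, and the medians were -0.92 and -1.20. The smallest p was that of Atp5g3, at -0.96 (SE 0.27, edgeR adjusted p = 0.176). DESeq2 called 7 and 1, and limma-voom 74 (73 lower) and 13. Without library 2, 57 (56 lower) and 11 passed with edgeR.

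The 2 control groups also differed in level, though 0 members were called with edgeR (0.124% of all genes were, 0.107% higher and 0.0178% lower). At an unadjusted p under 0.05 there was 1 nuclear gene and 0 mitochondrial genes (4.89% of all genes). The Cep120-line controls were higher than the Pkd1-line controls for 86 of 91 nuclear genes and all 13 mitochondrial genes. The medians were 0.25 and 0.31, against -0.01 over all genes. Of deposited TPM, nuclear members took 4.62, 4.37 and 4.63% against 4.09, 4.52 and 4.61%, with overlap. The longest 10% of genes minus the shortest 10% stood at -0.29 to -0.16 against 0.11 to 0.44 (log2), and the part of length was not tested. In 53 nuclear genes every Cep120-line control lay above every Pkd1-line control, against 11.5% of all genes, and in 0 below (9.99% of all genes). The smallest p was that of Ndufa6, at 326, 307 and 290 CPM against 182, 236 and 224, a difference of 0.53 (SE 0.23, edgeR adjusted p = 0.954). In the Pkd1 KO libraries Ndufa6 stood at 217, 231 and 214 CPM, close to library 2 at 223. The log2 differences above use each line's own controls.

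Other mitochondrial genes, from lists chosen with earlier results known, were set beside the members, and their counts stand against 6.26% of all genes lower and 8.4% higher in the Cep120 comparison. Of 21 electron carriers, ubiquinone synthesis genes and subunits outside the name rule, 6 fell and 0 rose in the libraries labelled Cep120 KO, with a median of -0.26. Cytochrome c (Cycs) had 509, 242, 246, 196 and 188 CPM against 634, 511 and 551 (-1.03, SE 0.27, edgeR adjusted p = 0.0315), and library 2 lay just below the controls. The electron transfer flavoprotein subunits Etfa and Etfb both fell by 0.74. Of 40 tested assembly factors outside the rule, 8 fell and 1 rose (median -0.35). The complex IV assembly factors Cox20 and Cox16 fell by 0.86 and 1.03. The one that rose was Ttc19, a complex III factor, by 1.19 at 4.52 to 9.24 CPM against 2.39 to 3.70.

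Of 35 genes that maintain and express mitochondrial DNA, 3 fell and 1 rose, against 6.26% of all genes lower and 8.4% higher, with a median of -0.10. The RNA-binding protein Slirp fell by 0.99 and the tRNA-processing subunit Hsd17b10 by 0.76, while the mitochondrial RNA polymerase Polrmt rose by 1.31. Polrmt had 8.06, 18.3, 19.3, 26.5 and 33.5 CPM against 5.46, 7.64 and 12.6 in the controls, so that library 2 lay within the controls and the other 4 above them. Of 11 regulators of mitochondrial biogenesis, 2 rose and 0 fell (median 0.66), against 8.4% of all genes higher, and the list was not tested against them. Hcfc1, a transcriptional coregulator, rose by 1.81 and Myc rose by 0.86. Hcfc1 had 15.2 CPM in library 2 and 60.9 to 71.8 in libraries 4 to 7, against 13.3 to 16.9 in the controls. Of 24 enzymes of the citrate cycle and pyruvate oxidation, 2 fell and 0 rose (median -0.22), against 6.26% of all genes lower. The pyruvate carrier subunit Mpc1 fell by 0.94 and fumarase (Fh1) fell by 0.79. In the Pkd1 comparison 0 genes of these 5 lists were called with edgeR.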

How the data were processed

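The authors deposited estimated counts per gene without normalization. Of each library's values, 88.4 to 91.6% were whole, and all were rounded. Deposited TPM served for levels between genes, and the authors' log2 CPM values for an alternative test. The submitters' processing notes name DRAGEN and mm9; the counting step is not given in the sources used here. Of 55774 lines, 287 repeated a gene and were dropped. Coordinates, lengths and GC content are GENCODE M21 on GRCm38, matched by Ensembl identifier, not the submitters' build.

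Tests used R 4.3.3 with edgeR 4.0.16 (filterByExpr at a minimum count of 10, TMM, quasi-likelihood fit of 14 libraries, 4 group means, 10 residual degrees of freedom, Benjamini-Hochberg adjustment over 16876 genes, called under 0.05). Library medians add 0.1 to CPM before log2. In simulated data of the Cep120 comparison (16362 genes, 200 of them changed), 8.33% of log2 changes of 1 and 48.4% of changes of 2 were recovered. In the data 14.7% of genes were called. With so few genes changed the adjustment is stricter, so these rates do not give the power of the comparison itself. limma 3.58.1 and DESeq2 1.42.0 were alternatives. Counts carry no molecular identifiers, so amplified copies remain. The members and lists were chosen with earlier results of these data known.

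Named genes were all 13 mitochondrial members, up to 3 called nuclear members per complex, by adjusted p (where a comparison called none, its 1 member of lowest p), the highest and lowest per complex in TPM, isoform sets, and up to 3 called genes of each other list. Others were chosen after their values were seen: Ndufs1, Ndufs3, Ndufs7, Ndufs8, Ndufv1, Ndufv2, Ndufv3, Ndufa10, Ndufb1-ps, Sdhd, Uqcr10, Uqcr11, Uqcrq, Uqcrc1, Uqcrc2, Cox5a, Cox5b, Cox6c, Ttc19, Atp5a1, Atp5b, Atp5d and Atp5e.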

Additional observations from a re-analysis of the deposited data

Results flagged for a closer look

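In 19 of 61 groups of 5 libraries tested, 1 library lay far from the other 4 (a gap over 0.71 of the group's range, Dixon's 95% value, which chance passes in about 1 in 20 independent groups). The groups are genes and shares of the same 5 libraries and not independent, so that rate cannot be set against the 19. In all 19 it was library 2 of those labelled Cep120 KO, as the highest. The nuclear-encoded members took 2.40% of its counts, against 1.87 to 1.98% in the other 4.

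Among mitochondrially encoded genes, library 2 had 13065 CPM for mt-Co3, where the others had 3760 to 5967. It had 6526 for mt-Atp6, 6422 for mt-Cytb, 5707 for mt-Nd1, 3798 for mt-Co2 and 452 for mt-Nd3. The widest gap was that of mt-Nd3, where libraries 4 to 7 lay between 102 and 113 CPM.

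Among nuclear genes of complex V, library 2 had 933 CPM for Atp5c1 (the others 462 to 549), 442 for Atp5g1, 361.5 for Atp5g2 and 407 for Atp5g3. In complex IV it had 990 for Cox4i1 and 258 for Cox7a2l, and in complex III 397 for Uqcrc2 and 311 for Uqcrh. In complexes I and II it had 391 for Ndufv2, 386 for Ndufv1 and 291 for Sdhc, and Ndufaf5, an assembly factor, stood at 25.5. Library 2 also differed from libraries 4 to 7 in its TMM factor, 0.908 against 1.15 to 1.32, and the part of that in these values was not tested.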

How the results depend on the processing

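In the Cep120 comparison, counts of nuclear and mitochondrial members called are given in that order (51 and 8 as reported). They were 0 and 0 in a fit of the 2 groups alone, which has fewer libraries to estimate the spread, 83 and 13 with limma-voom, and 0 and 0 with length and GC offsets. limma-trend on the deposited log2 values called 41 and 5. Without libraries 6 and 7 they were 32 and 0, without 4 and 5, 22 and 0, with 4 and 5 summed, 27 and 1, and with library 2 as the only library of its group, 0 and 0. Leaving out 1 library gave 0 to 72 and 0 to 11. The cause of these shifts was not tested. RLE size factors (57 and 7), no filter (54 and 7), DESeq2 (66 and 10) and scaling without mitochondrial genes (51 and 6) stayed within 1.5 times. In the difference of the 2 effects, DESeq2 called 7 and 1, limma-voom 74 and 13, and leaving out 1 library gave 0 to 57 and 0 to 11. In the controls, limma-voom and the fit with library 2 alone each called 1 nuclear gene.

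In the Pkd1 line, 0 members were called under every alternative run. With the replicate block, 0 and 0 were called (1 and 5 at an unadjusted p under 0.05). The shared numbers correlated at -0.05, -0.03 and -0.12 and do not show paired samples. Without 1 library the difference in mitochondrial share was 0.311 to 1.05 percentage points (0.716 as reported) and that in nuclear share -0.0854 to 0.0639 (0.00766).

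The genes below took the opposite direction in the Cep120 comparison (log2). Of them, Atp5g2, mt-Atp6 and mt-Nd6 had been called. With library 2 alone: Atp5a1 0.045, Atp5b -0.077, Atp5d 0.081, Atp5g2 0.044, Cox4i2 -0.99, Cox7a2l 0.075, Ndufa10 -0.31, Ndufs3 0.14, Sdha 0.17, Uqcrc2 0.068, Uqcrfs1 0.56, mt-Atp6 0.056, mt-Atp8 0.17, mt-Nd3 0.14 and mt-Nd4l 0.034. With limma-trend: Atp5d 0.33, Cox6a1 0.087, Ndufa4l2 1.11, Ndufs1 0.15, Ndufs3 0.25, Ndufs7 0.059, Sdha 0.041, Uqcrc1 0.024 and Uqcrfs1 0.17. With length and GC offsets: Ndufs3 0.13, Uqcrfs1 0.092, mt-Atp8 0.10, mt-Nd4l 0.57 and mt-Nd6 0.13. Without libraries 4 and 5: Atp5d 0.11, Ndufs3 0.17 and Uqcrfs1 0.20. With 4 and 5 summed: Atp5d 0.012, Ndufs3 0.016 and Uqcrfs1 0.015. Without libraries 6 and 7: Atp5b -0.25 and Cox4i2 -0.12. With limma-voom: Atp5b -0.29 and Ndufaf6 -0.062. Leaving out 1 library gave these ranges: Atp5b -0.079 to 0.11, Atp5d -0.13 to 0.024, Cox4i2 -0.018 to 0.46, Ndufa4l2 -2.06 to 5.81, Ndufaf6 -0.31 to 0.39, Ndufs3 -0.21 to 0.016 and Uqcrfs1 -0.37 to 0.071.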
